A study of Mus musculus with 6 samples.

Results

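The 10 genes described here are markers of the fetal liver and imprinted regulators of growth: Afp, Gpc3, Igf2bp3, Mest, Grb10, Plagl1, Dlk1, H19, Peg3 and Cdkn1c. They were chosen by name, with earlier results of these data known. Each was read from its brightest probe among those annotated to that gene alone. For 9 of the 10 such a probe was found, 1 probe per gene, and all 9 were among the 10977 tested genes, out of 19938 genes with a probe. H19 had no probe listed under its symbol in the annotation used and is not analysed here. The values are deposited log2 signals, so a difference of 1 is a 2-fold difference in signal.

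Liver RNA of C57Bl6/J pups, collected at 1 day of age according to the labels, was hybridised to 6 arrays, 2 for each of 3 maternal diets of equal calories with 6 g% of oil. ALA mothers ate flaxseed oil, with alpha-linolenic acid (31.6%) as the leading fatty acid, SFA mothers coconut oil, led by saturated fatty acids (48.51%), and Control mothers soybean oil. The fathers ate the diet of their mates while mating, and each array carried RNA pooled from 3 livers. Whether duplicate pools held different animals or litters is not stated, so p-values measure only the spread between these pools. For ALA and SFA that spread may be technical. Y-linked signals, given below, differed between the 2 Control pools, which thus did not hold the same animals. The labels give the same date for all arrays and no other batch.

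Many genes that drive fetal growth are imprinted, which means that in most tissues they are read from the copy of 1 parent only. Paternally expressed genes such as Mest, Plagl1, Dlk1 and Peg3 are best known for promoting growth or for acting in its control, while the maternally expressed Cdkn1c, Grb10 and H19 restrain it. In mice many of these genes are strongly expressed in the fetus and are turned down together after birth. Afp, Gpc3 and Igf2bp3 are not imprinted, but they too are oncofetal genes: high in the fetal liver, low in the adult liver and often high again in liver cancer.

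The start regions of the 5 genes with the largest changes on the SFA diet, of which Mest and Grb10 are imprinted, are shown with each CG in capitals, the dinucleotide whose methylation carries imprints. Each sequence is the RefSeq window (build GRCm38.p6) of 250 bases before to 50 bases after an annotated start, on the strand of the gene. The windows are chr5:90490464-90490763 (plus strand) for Afp, chrX:52613925-52614224 (minus) for Gpc3, chr6:49214905-49215204 (minus) for Igf2bp3, chr6:30737800-30738099 (plus) for Mest and chr11:12037371-12037670 (minus) for Grb10. Of the 3 annotated windows of Mest and the 2 of Grb10, the one with the most CG is shown. These windows were not chosen as regions that carry an imprint, and the CG shown need not be such sites. Methylation was not measured in this study.
Afp: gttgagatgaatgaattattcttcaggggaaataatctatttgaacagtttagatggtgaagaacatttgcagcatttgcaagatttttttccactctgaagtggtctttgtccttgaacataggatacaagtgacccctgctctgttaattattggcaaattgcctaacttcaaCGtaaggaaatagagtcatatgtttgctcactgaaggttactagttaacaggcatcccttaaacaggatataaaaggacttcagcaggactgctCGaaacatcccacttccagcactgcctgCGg
Gpc3: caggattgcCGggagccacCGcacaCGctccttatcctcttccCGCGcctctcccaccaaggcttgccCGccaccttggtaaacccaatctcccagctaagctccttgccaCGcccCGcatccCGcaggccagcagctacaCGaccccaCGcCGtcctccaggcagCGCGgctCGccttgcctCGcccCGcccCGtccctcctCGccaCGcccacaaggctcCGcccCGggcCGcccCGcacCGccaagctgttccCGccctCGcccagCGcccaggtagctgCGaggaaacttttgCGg
Igf2bp3: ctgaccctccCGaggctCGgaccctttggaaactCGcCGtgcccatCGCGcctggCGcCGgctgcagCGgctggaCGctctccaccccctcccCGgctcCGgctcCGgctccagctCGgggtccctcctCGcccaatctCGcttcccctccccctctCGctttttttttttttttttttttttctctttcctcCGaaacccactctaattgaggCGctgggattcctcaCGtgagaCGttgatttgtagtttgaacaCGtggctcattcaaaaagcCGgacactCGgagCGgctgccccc
Mest: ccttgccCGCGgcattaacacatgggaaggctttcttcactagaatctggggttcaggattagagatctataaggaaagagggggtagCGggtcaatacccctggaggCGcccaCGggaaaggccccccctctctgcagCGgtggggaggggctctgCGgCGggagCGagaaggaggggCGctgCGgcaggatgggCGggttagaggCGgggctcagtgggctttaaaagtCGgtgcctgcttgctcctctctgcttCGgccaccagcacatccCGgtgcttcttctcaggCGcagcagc
Grb10: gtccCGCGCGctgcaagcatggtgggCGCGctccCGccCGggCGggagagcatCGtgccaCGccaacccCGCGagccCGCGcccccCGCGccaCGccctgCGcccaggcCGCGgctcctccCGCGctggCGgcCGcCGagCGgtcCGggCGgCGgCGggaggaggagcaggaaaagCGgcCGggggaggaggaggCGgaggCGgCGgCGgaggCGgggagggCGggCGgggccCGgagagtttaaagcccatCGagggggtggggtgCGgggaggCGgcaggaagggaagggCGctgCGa

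The Afp window held 3 CG, against 30 in Gpc3, 25 in Igf2bp3, 17 in Mest and 45 in Grb10. The median over all 32851 windows was 7. Afp, a gene read in hepatocytes, had 1 match to the TATA box letters TATAAA and 1 to the HNF1 core GTTAAT, counted on both strands. Mest had 1 match to GTTAAT and 1 to the GC box GGGCGG. The TATA box and HNF1 letters occurred in 13.6% and 7.10% of all windows. Gpc3 had 4 and Grb10 5 matches to GGGCGG, found in 35.7% of windows, and Igf2bp3 had 2 matches to the E-box CACGTG, found in 7.15%. A match describes the letters only. Of the other genes, Plagl1 held 26 CG, Peg3 13 and Dlk1 9.

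The median log2 signal over all 35556 probes was 4.90 and 4.96 in the ALA pools, 4.76 and 4.82 in the SFA pools and 4.94 and 4.95 in the Control pools. The SFA arrays were thus the dimmest, and rescaling moved the genes called higher on SFA to between 957 and 1004, against 727 as deposited, while 6 of the 9 genes described here were called under each scaling. Duplicate pools correlated across the tested genes with r = 0.978 for ALA, 0.986 for SFA and 0.977 for Control, where genes are not independent replicates. The labelled tissue showed in the hepatocyte markers: the mean log2 signal of 9 tested genes, Alb, Ttr and Apoa1 among them, was 12.0 and 12.0 in the ALA pools, 11.9 and 11.9 in the SFA pools and 11.9 and 12.0 in the Control pools. Genes of the sex chromosomes gave different signals. Xist, which silences 1 X chromosome in female cells, was at 3.76 and 4.24 on ALA, 9.46 and 9.51 on SFA, and 10.7 and 8.34 on Control arrays, and the Y-linked Eif2s3y at 7.74 and 7.80, 4.11 and 3.79, and 3.63 and 7.95 on the same arrays. Diet and the sex makeup of the pools cannot be told apart between ALA and SFA. The 2 Control pools differed in sex makeup, and Xist was lower on ALA than on Control arrays (-5.50, adjusted p = 0.00661). The part of sex makeup in the values against Control was not tested. On the arrays without Y-linked signal, Y-linked genes reached at most 4.42, which is used here as a mark of background.

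The Control pools did not show the pattern known for newborn liver. Afp, which is abundant at birth, was at 4.52 and 4.81 there, and the genes of dividing cells averaged 4.97 and 4.95. Mup3 and Cyp7b1, which are known to rise in the weeks after birth, were at 11.50 and 11.96 and at 8.35 and 10.98 in the same pools. The labelled age of the Control pools is therefore in doubt. Mup3 and Cyp7b1 were picked from 18 tested liver genes known to rise after birth. Against Control, 1 of the 18 rose (Tat) and 3 fell on ALA, 0 rose and 4 fell on SFA, and 14 were not called on each diet. The Mup3 probe is uncertain because its family has near-identical copies, and the 2 Control pools differed widely for Cyp7b1. The diet pools did not show the full newborn pattern either. Afp was at 4.94 and 5.60 on ALA and at 6.26 and 6.44 on SFA arrays. Cyp2e1, another liver gene known to rise after birth, was at 12.4 and 12.4 on ALA and at 12.1 and 12.1 on SFA arrays. The age of all pools thus rests on the labels alone. Diet and a difference in age or maturity between the pools cannot be told apart in any value given against Control.

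Against Control, 5 of the 9 tested genes rose in ALA livers and 0 fell, where 5.11% of all tested genes rose and 2.82% fell (7.93% together). In SFA livers 6 of the 9 rose and 0 fell, where 6.62% of all tested genes rose and 7.15% fell (13.8% together). Gpc3, Igf2bp3, Mest, Grb10 and Plagl1 rose on both diets, and Afp rose on SFA. Both comparisons use the same 2 Control arrays, so a low value there raises both. Dlk1, Peg3 and Cdkn1c did not pass on either diet. The median log2 change of the 9 genes was 1.21 on ALA and 1.68 on SFA, against -0.01 and -0.05 over all tested genes. Because the genes were chosen with earlier results of these data known, these counts and medians are a description and not a test. Both ALA pools lay above both Control pools for 8 of the 9 genes, where 27% of all tested genes did and 28% had both ALA pools below. Both SFA pools lay above for 8 of the 9, where 28.6% did, and below for 1, where 35.7% did.

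**Figure D1:**
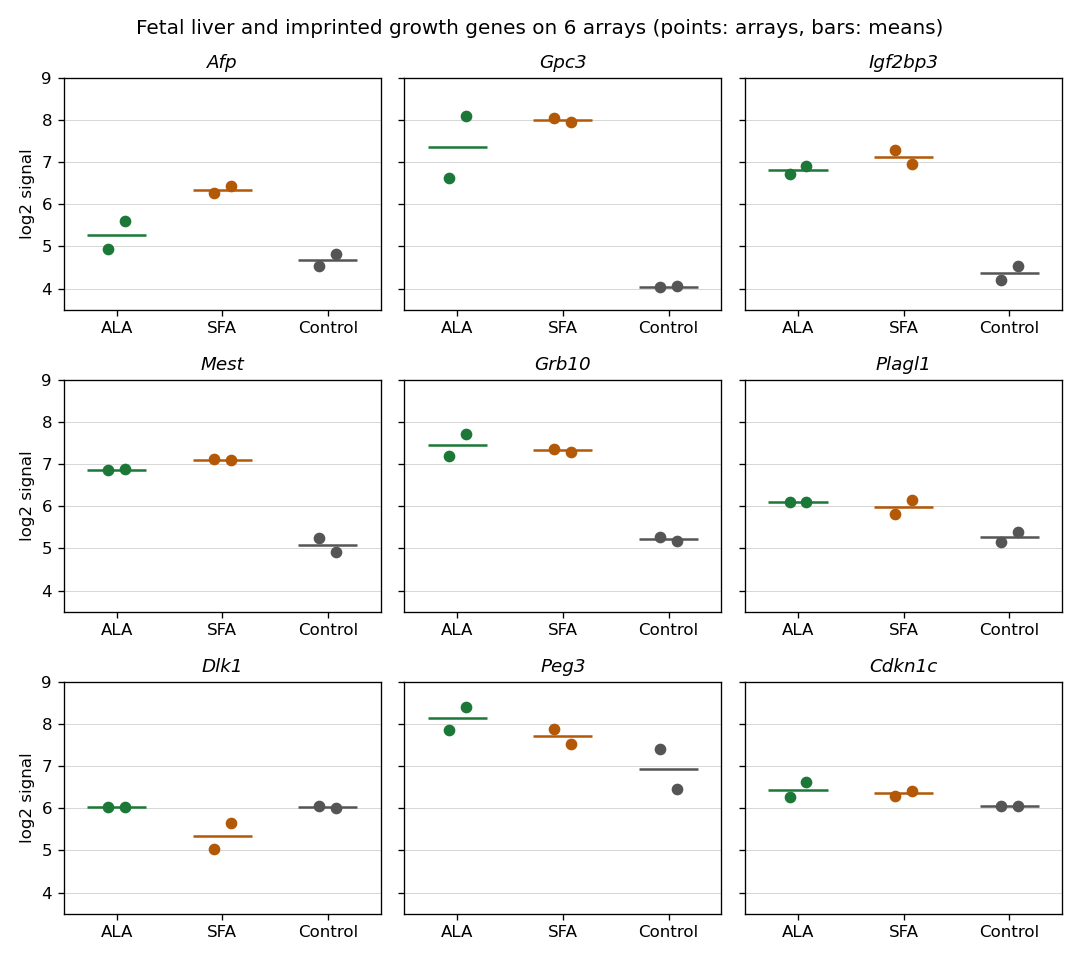
The log2 signal (vertical axis) of the 9 measured genes on each array, with ALA, SFA and Control from left to right; points are arrays and bars are means of 2 arrays. For Gpc3, Igf2bp3, Mest and Grb10 the lowest ALA or SFA point is 6.64 and the highest Control point 5.27.

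Among the fetal liver genes, Gpc3 had the largest difference. It encodes glypican 3, a heparan sulfate proteoglycan anchored to the cell surface that restrains fetal growth and, in mice, hedgehog signalling. Its log2 signal was 6.64 and 8.11 in the ALA pools, 8.05 and 7.96 in the SFA pools and 4.03 and 4.07 in the Control pools. ALA replicate 1 thus lay below the other 3 diet arrays, and no diet array came near the Control arrays. Gpc3 rose by 3.33 on ALA (SE 0.41, 10.04-fold, adjusted p = 0.00728) and by 3.96 on SFA (SE 0.41, 15.5-fold, adjusted p = 0.00377). The Control mean of 4.05 was under the background mark, so the size of the change rests on a Control signal at the level of background. On ALA the change was 4.07 without ALA replicate 1 and 2.59 without ALA replicate 2. In whole liver, fewer cells of a type and less RNA per cell cannot be told apart. Gpc3 is X-linked, and the part of the pools' sex makeup in its values was not tested.

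Igf2bp3, an RNA-binding protein of fetal tissues that binds Igf2 and other mRNAs, had log2 signals of 6.74 and 6.92 on ALA arrays, 7.30 and 6.96 on SFA arrays and 4.20 and 4.53 on Control arrays. The diet arrays lay close together and clear of Control. It rose by 2.46 on ALA (SE 0.18, 5.51-fold, adjusted p = 0.00246) and by 2.77 on SFA (SE 0.18, 6.82-fold, adjusted p = 0.00108). Its Control mean of 4.36 was also under the background mark. Its relative Igf2bp1 was under the minimum for testing, with 3.82 and 4.42 on ALA, 3.80 and 4.59 on SFA and 4.22 and 4.25 on Control arrays.

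Afp, the fetal counterpart of serum albumin, is known as an abundant transcript of newborn mouse liver that is shut down in the weeks after birth. Here its log2 signal was 4.94 and 5.60 on ALA arrays, 6.26 and 6.44 on SFA arrays and 4.52 and 4.81 on Control arrays. The groups stood in the order SFA, ALA, Control without overlap, and the Control arrays were near the background mark of 4.42. Afp rose by 1.68 on SFA (SE 0.23, 3.21-fold, adjusted p = 0.00749), a call that missed the threshold without SFA replicate 2 (1.59, adjusted p = 0.0508). On ALA the change of 0.60 did not pass (SE 0.23, adjusted p = 0.161). Alb, its neighbour in the same gene family, changed by -0.06 on ALA and -0.14 on SFA, and neither passed.

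Among the imprinted genes, Mest and Grb10 had the largest differences. Mest encodes a hydrolase-like protein, is paternally expressed and promotes fetal growth in mice. It had 6.86 and 6.89 on ALA arrays, 7.14 and 7.09 on SFA arrays and 5.25 and 4.93 on Control arrays. The duplicates of each diet differed by far less than the diets differed from Control. Mest rose by 1.79 on ALA (SE 0.14, 3.46-fold, adjusted p = 0.00277) and by 2.03 on SFA (SE 0.14, 4.08-fold, adjusted p = 0.00136).

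Grb10 encodes an adaptor that binds the insulin and IGF1 receptors and dampens their signal, and outside the brain it is read mainly from the maternal copy in mice. Its log2 signal was 7.21 and 7.73 on ALA arrays, 7.37 and 7.30 on SFA arrays and 5.27 and 5.19 on Control arrays. The ALA pools lay on both sides of the SFA pools, and all 4 were clear of Control. Grb10 rose by 2.24 on ALA (SE 0.18, 4.73-fold, adjusted p = 0.00282) and by 2.11 on SFA (SE 0.18, 4.31-fold, adjusted p = 0.00284). A growth-promoting and a growth-restraining imprinted gene were thus both higher on each diet. The related adaptors Grb7 and Grb14 did not pass, at -0.13 and 0.00 on ALA and -0.17 and 0.42 on SFA.

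Plagl1 encodes the zinc finger protein Zac1, which in mice acts on Igf2, H19, Cdkn1c and Dlk1. Its log2 signal was 6.11 and 6.12 on ALA arrays, 5.83 and 6.14 on SFA arrays and 5.16 and 5.39 on Control arrays. The groups did not overlap, but the step was smaller than for the genes above. It rose by 0.84 on ALA (SE 0.15, 1.79-fold, adjusted p = 0.0240) and by 0.71 on SFA (SE 0.15, 1.64-fold, adjusted p = 0.0290). The ALA call was lost without either ALA array or either Control array (0.72 to 0.95, adjusted p = 0.0626 to 0.0990), and the SFA call without either SFA array or either Control array (0.56 to 0.87, adjusted p = 0.0645 to 0.138).

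Peg3, a paternally expressed zinc finger gene, had 7.87 and 8.42 on ALA arrays, 7.90 and 7.54 on SFA arrays and 7.41 and 6.46 on Control arrays. The 2 Control pools differed more than for any other of the 9 genes. Its changes of 1.21 on ALA (SE 0.33, adjusted p = 0.0706) and 0.78 on SFA (SE 0.33, adjusted p = 0.154) did not pass. Without Control replicate 1 the ALA change was 1.69 and passed (adjusted p = 0.0317). Peg3 thus rested on which Control pool was used.

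Cdkn1c encodes the cyclin-dependent kinase inhibitor p57, which holds back fetal cell division. It had 6.28 and 6.63 on ALA arrays, 6.30 and 6.42 on SFA arrays and 6.06 and 6.07 on Control arrays. All 4 diet arrays were above Control, by little. The changes of 0.39 on ALA (SE 0.15, adjusted p = 0.166) and 0.30 on SFA (SE 0.15, adjusted p = 0.217) did not pass.

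Dlk1, a transmembrane protein with EGF repeats that marks hepatoblasts, went the other way on SFA. Its log2 signal was 6.05 and 6.03 on ALA arrays, 5.04 and 5.64 on SFA arrays and 6.06 and 6.02 on Control arrays. ALA and Control arrays overlapped, while both SFA arrays were lower. The SFA change of -0.70 (SE 0.20, adjusted p = 0.0600) did not pass, and without SFA replicate 2 it was -1.01 and passed (adjusted p = 0.0388). The ALA change was 0.00 (SE 0.20, adjusted p = 0.997), with a 95% interval of -0.47 to 0.47. Of the 9 genes, Dlk1 was the only one with a negative change on either diet, in the deposited scaling. On ALA its sign turned with cyclic loess scaling (0.01).

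**Figure D2:**
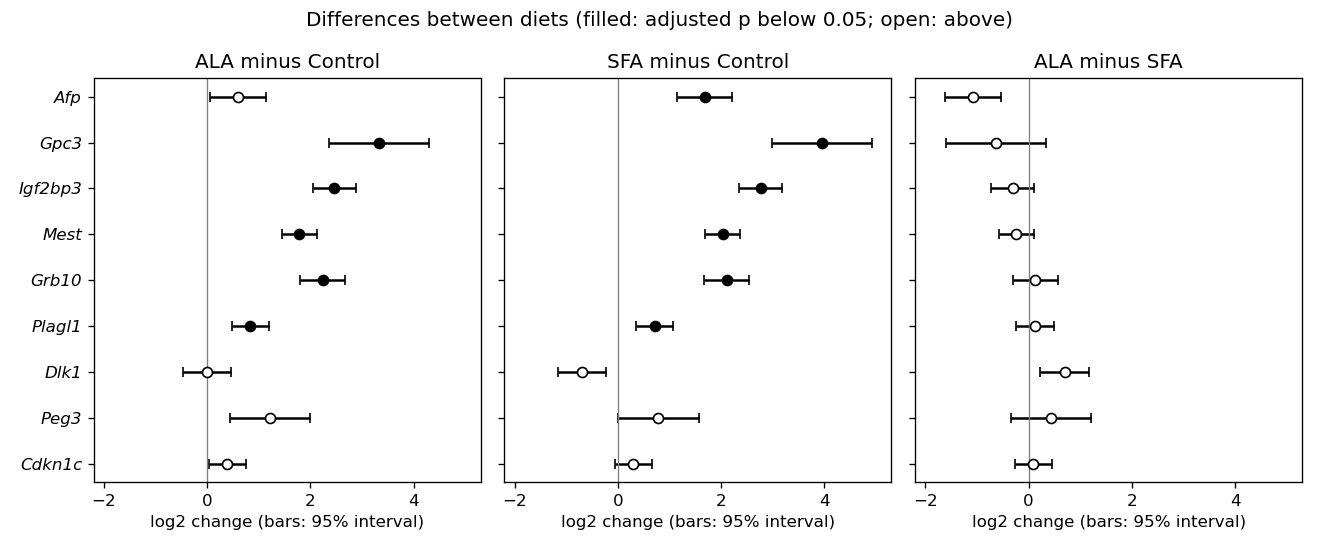
The log2 change (horizontal axis) of the 9 genes for ALA against Control, SFA against Control and ALA against SFA, with 95% intervals from limma; filled points have an adjusted p below 0.05. On ALA minus Control 5 genes are filled, on SFA minus Control 6, and on ALA minus SFA 0.

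Between the 2 tested oils, 0 of the 9 genes passed in ALA minus SFA, where 1.53% of all tested genes did (1.09% higher and 0.437% lower on ALA). The ALA pools lay above the SFA pools without overlap for 1 gene, where 31.4% of all tested genes did, and below for 3, where 24.4% did. An unadjusted p below 0.05 was reached by 2 of the 9 and by 2463 of the 10977 tested genes, a similar share. This count thus does not set the 9 genes apart. The 2 were Afp at -1.08 (unadjusted p = 0.00206, adjusted p = 0.0662) and Dlk1 at 0.70 (unadjusted p = 0.00963, adjusted p = 0.113). Afp was lower and Dlk1 higher on ALA, in each case with no overlap between the arrays. The 95% interval of the difference was -1.62 to -0.54 for Afp and 0.23 to 1.17 for Dlk1. For Gpc3 it was -1.60 to 0.34, for Igf2bp3 -0.73 to 0.11, for Mest -0.58 to 0.10, for Grb10 -0.30 to 0.57, for Plagl1 -0.24 to 0.49, for Peg3 -0.35 to 1.21 and for Cdkn1c -0.27 to 0.44. For the genes that rose on both diets these intervals do not show that the oils acted alike. Gpc3 differed by -1.37 without ALA replicate 2 and then passed (adjusted p = 0.0484), and by 0.11 without ALA replicate 1. By the F test for any difference between the 3 diets, 6 of the 9 passed, where 13.5% of all tested genes did. They were Igf2bp3, Mest, Grb10, Gpc3, Afp and Plagl1. The Plagl1 call was lost when any 1 of the 6 arrays was left out (adjusted p = 0.0528 to 0.116), and the Afp call without either SFA array or either Control array (adjusted p = 0.0517 to 0.0772).

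Across the 6 arrays Gpc3, Igf2bp3, Mest and Grb10 followed each other, with Pearson r from 0.967 to 0.981 for the 6 pairs. These correlations describe 3 diets with 2 pools each and share the step between Control and the other arrays. Afp stood further off, with r of 0.859 to Gpc3 and 0.732 to Grb10. Dlk1 had a negative r with each of the other 8, from -0.763 with Afp to -0.151 with Cdkn1c.

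Of 1561 tested genes that varied by at least 1 on the log2 scale, those most like Gpc3 were Mki67, the marker of dividing cells, and the histone gene H2bc18 (r = 0.998 each over 6 arrays). For Igf2bp3 they were Slc4a1, the red cell anion exchanger (r = 0.999), and Cpd, a carboxypeptidase gene (0.997). For Mest they were the cytoskeletal genes Csrp1 and Tagln2 (0.996 each), and for Grb10 Mmp2, a matrix protease gene, and Calml4 (0.996 each). Afp was closest to Plppr1 (0.994) and to Rfc4, a DNA replication gene (0.991). Plagl1 was closest to Tie1, an endothelial receptor gene (0.970), and Rhbg (0.968). Peg3 was closest to Lepr, the leptin receptor gene (0.988), and Pde2a (0.984), Cdkn1c to Ccdc68 (0.987) and Tk1 (0.983), and Dlk1 to Zfp740 (0.985) and Trim47 (0.981). Between 7 and 144 of the 1561 genes reached r = 0.95 with a given gene of the 9, so these nearest genes are a description of 6 arrays.

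Of 7 tested partners in the imprinted gene network of the mouse, Igf2 among them, 1 rose and 0 fell on ALA, with a median of 0.58, where 5.11% of all tested genes rose. On SFA 3 rose and 0 fell, with a median of 0.75, where 6.62% rose. Gatm, the gene of the first enzyme of creatine synthesis, rose by 1.47 on ALA (SE 0.17) and 1.41 on SFA (SE 0.17). Igf2, the fetal growth factor gene that neighbours H19, had 6.03 and 6.15 on ALA, 6.71 and 7.12 on SFA and 5.06 and 5.64 on Control arrays, rose by 1.57 on SFA (SE 0.22, adjusted p = 0.00849) and did not pass on ALA at 0.74. Sgce, a sarcoglycan gene next to Peg10, rose by 0.75 on SFA (SE 0.20, adjusted p = 0.0492). Igf2r, whose product clears IGF2, was at -0.20 and 0.10, and Meg3, the maternally expressed RNA next to Dlk1, at 0.58 and 0.07, on ALA and SFA in that order, and none of these passed.

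Of 20 tested imprinted genes outside that network 0 rose and 0 fell on ALA, where 7.93% of all tested genes were called, and 0 rose and 1 fell on SFA, where 13.8% were. The medians were -0.07 on each diet, and the counts were not tested against those shares or against the 9 genes. The 1 was Airn, the antisense RNA of the Igf2r locus, which fell by 1.25 on SFA (SE 0.29). Its log2 signal was 6.75 and 7.50 on ALA, 5.61 and 6.30 on SFA and 7.19 and 7.21 on Control arrays. The 17 other measured genes of this list, Magel2, Nnat and Dio3 among them, were under the signal minimum of 5.

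Other genes of the fetal liver went both ways. Of 7 tested genes 2 rose and 0 fell on ALA (median -0.15), where 7.93% of all tested genes were called. On SFA 1 rose and 1 fell (median -0.33), where 13.8% were called. Cyp3a16, a fetal cytochrome P450 gene, rose by 3.80 on ALA (SE 0.41) and by 5.15 on SFA (SE 0.41). Its Control signals of 4.64 and 4.03 were at the level of background, so the size of these changes is uncertain. Scd2, the desaturase of early liver, rose by 1.32 on ALA (SE 0.25), while Tbx3, a transcription factor gene of hepatoblast growth, fell by 0.72 on SFA (SE 0.19). Scd2 was at 0.49 on SFA and Tbx3 at -0.79 on ALA, and neither of these passed. The stem-like genes Lin28a, Lin28b, Sall4, Igf2bp1, Mycn and Epcam were all under the signal minimum.

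Of 12 tested regulators of Afp and H19, 1 rose and 1 fell on ALA (median -0.30), where 7.93% of all tested genes were called. On SFA 0 rose and 1 fell (median -0.19), where 13.8% were called. Zhx2 and Zbtb20, which in mice silence Afp after birth, were at -0.25 and -0.23 on ALA and at -0.17 and -0.62 on SFA, and did not pass (Zbtb20 on SFA had SE 0.19 and adjusted p = 0.0755). Foxa1, a pioneer factor gene, fell by 0.94 on ALA and by 0.89 on SFA (SE 0.20 each). Cebpb, a factor gene of the acute phase, rose by 0.81 on ALA (SE 0.17).

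Of 14 tested genes that set or keep imprints, 2 rose and 0 fell on ALA (median 0.05), where 7.93% of all tested genes were called. On SFA 2 rose and 1 fell (median -0.04), where 13.8% were called. The demethylase genes Tet2 and Tet3 rose by 0.69 and 0.55 on ALA. On SFA the polycomb methyltransferase gene Ezh2 rose by 0.83 (SE 0.12) and Uhrf1, which guides DNA methylation at replication, rose by 0.90 (SE 0.23), and both are known to be high in dividing cells. Zfp445, a zinc finger gene that protects imprints, fell by 1.08 on SFA (SE 0.27). Dnmt1, Trim28 and Ctcf did not pass on either diet.

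Of 10 tested family relatives of the 9 genes 1 rose and 0 fell on ALA (median -0.03), and 1 rose and 1 fell on SFA (median -0.09), counts close to the 7.93% and 13.8% of all tested genes called on these diets. Gpc6, another glypican gene, rose by 1.17 on ALA (SE 0.14) and 1.28 on SFA (SE 0.14). Gpc1 fell by 0.68 on SFA (SE 0.13), and Gpc4 was at 0.14 and -0.03 without passing.

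Receptors, ligands and cell cycle partners of the 9 genes numbered 28 tested. Of these 3 rose and 1 fell on ALA (median 0.02), where 7.93% of all tested genes were called. On SFA 3 rose and 0 fell (median -0.00), where 13.8% of all tested genes were called. Hhip, a hedgehog-binding protein gene, rose by 1.28 on ALA and 1.52 on SFA (SE 0.28 each). The cyclin gene Ccne2 rose by 1.03 on ALA and 1.67 on SFA (SE 0.22 each), against Control signals of 4.55 and 3.91, at the level of background. Igf1r, a receptor that Grb10 binds, rose by 0.78 on ALA (SE 0.15), the insulin receptor substrate gene Irs1 fell by 0.75 on ALA (SE 0.16), and the replication clamp gene Pcna rose by 0.93 on SFA (SE 0.17). Insr was at -0.25 and -0.38 without passing.

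Liver genes known to rise after birth served as a counterpart. Of 18 tested genes 1 rose and 3 fell on ALA (median -0.18), where 7.93% of all tested genes were called. On SFA 0 rose and 4 fell (median -0.21), where 13.8% were called. Cyp7b1, of bile acid synthesis, fell by 4.18 on ALA and by 4.13 on SFA (SE 0.72 each). Mup3, a major urinary protein gene, fell by 2.61 on ALA and fell by 3.25 on SFA (SE 0.46 each), and the near-identical copies of this family and of the Cyp3a genes leave both probes uncertain. Aox3, an aldehyde oxidase gene, fell by 1.64 on ALA (SE 0.33), and the carboxylesterase genes Ces3a and Ces3b fell by 1.49 and 3.51 on SFA. On the other diet their changes had the same sign without passing. Aox3 was at -1.19 on SFA, and Ces3a and Ces3b were at -1.14 and -2.24 on ALA. Tat, an amino acid enzyme gene induced at birth, rose by 0.66 on ALA (SE 0.12). The rest, Cyp2e1, Tdo2 and Hpd among them, did not pass.

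**Figure D3:**
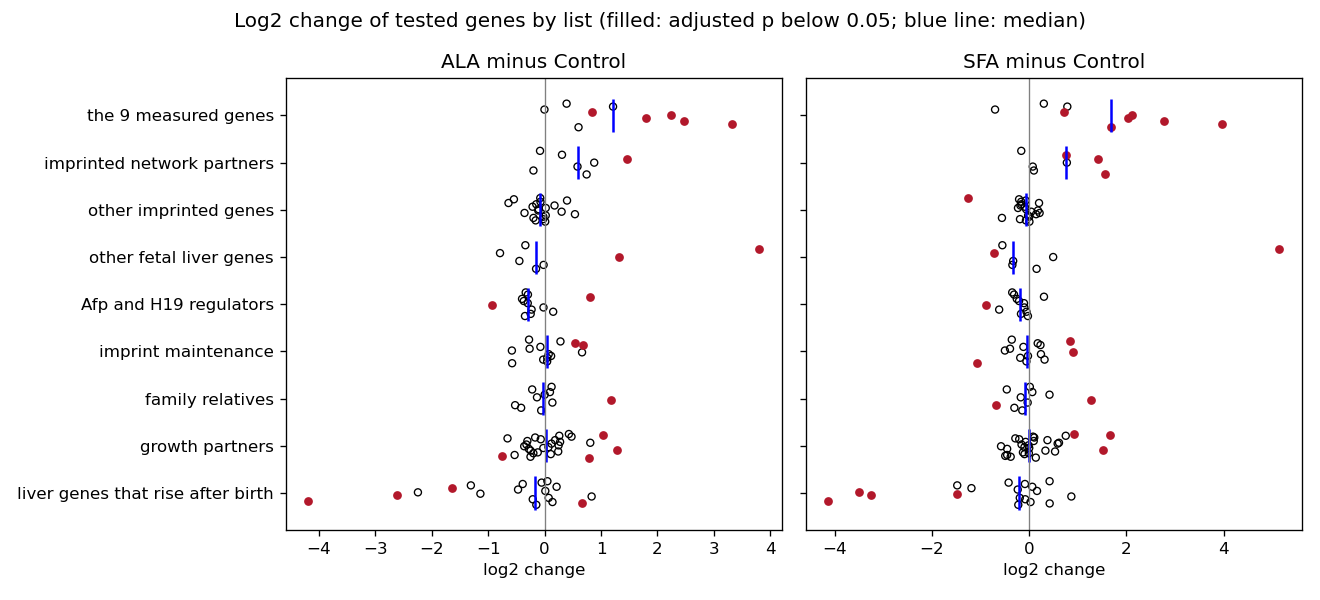
The log2 change (horizontal axis) of each tested gene in ALA minus Control (left) and SFA minus Control (right), by list; filled points have an adjusted p below 0.05 and the blue line is the median. The median of the 9 genes is 1.21 on ALA and 1.68 on SFA, and those of the imprinted genes outside the network are -0.07 on each.

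Markers of several other cell types were higher on both diets as well, and their part in the results above was not tested. Over all tested genes 5.11% were called higher on ALA and 6.62% on SFA, and 2.82% and 7.15% were called lower. The mean log2 level of 10 tested genes of dividing cells was 6.19 and 7.42 on ALA arrays, 7.73 and 7.68 on SFA arrays and 4.97 and 4.95 on Control arrays, with 7 genes called higher on ALA and 10 on SFA. ALA replicate 1 was the lower ALA pool for these genes, as it was for each of the 9 genes described here except Dlk1. Ccna2, Mki67, Cdk1 and Rrm2 rose by 2.73, 2.54, 2.36 and 1.88 on ALA, and Ccna2, Cdk1, Mki67 and Ccnb2 by 3.93, 3.24, 3.14 and 3.01 on SFA. Genes of stellate cells, fibroblasts and mesothelium, cells in which Dlk1, Igf2 and Mest are also known to be read, had a mean level of 7.26 and 7.46 on ALA, 7.45 and 7.42 on SFA and 6.40 and 6.13 on Control arrays (6 of 10 higher on ALA and 9 of 10 on SFA, with Msln and Wt1 under the minimum). Postn, Acta2 and Col3a1 rose by 2.25, 1.54 and 1.22 on ALA and by 2.17, 2.03 and 1.32 on SFA.

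For endothelium the mean level was 8.66 and 8.53 on ALA, 8.30 and 8.26 on SFA and 7.70 and 7.09 on Control arrays, with 5 of 8 genes higher on each diet. Lyve1 rose by 2.67 on ALA and by 1.94 on SFA. For macrophages it was 8.77 and 8.37, 8.41 and 8.34, and 7.38 and 7.17 on the same arrays, with 9 of 9 higher on ALA and 7 of 9 on SFA. C1qb rose by 1.80 on ALA and by 1.42 on SFA.

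For megakaryocytes the mean level was 6.61 and 6.38 on ALA, 7.10 and 6.95 on SFA and 5.44 and 5.59 on Control arrays, with 3 of 5 genes higher on each diet. For erythroid cells it was 6.92 and 7.01, 6.94 and 6.86, and 5.48 and 5.98, with 2 of 5 higher on each diet and 1 lower on SFA, Ermap. Between the oils Ermap passed as higher on ALA and Pf4, of the megakaryocyte list, as lower on ALA. Slc4a1 and Tfrc rose by 2.22 and 2.17 on ALA and by 2.52 and 2.51 on SFA, whereas Gata1, Epb42 and Kel were under the minimum. The hepatocyte list had 0 of 9 genes called on either diet. Several of its genes lay near the top of the scale, with Alb at 12.6 to 12.8 where the highest signal per array was 12.7 to 13.1. The lack of calls thus does not show an unchanged share of hepatocytes. For bile duct cells 1 of 3 genes, Krt19, rose on ALA and 0 on SFA, with Epcam and Cftr under the minimum. The bile duct mean was 5.69 and 5.61 on ALA, 5.25 and 5.62 on SFA and 5.57 and 5.47 on Control arrays.

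**Figure D4:**
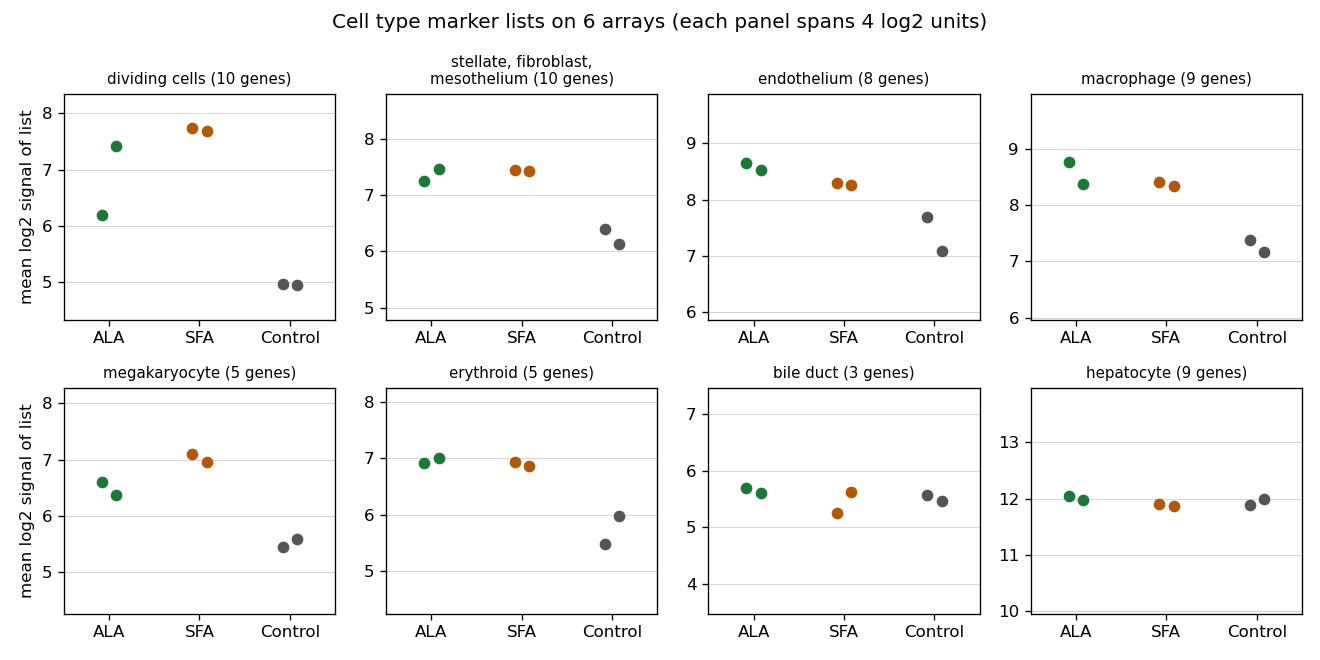
The mean log2 signal (vertical axis) of the tested genes of 8 cell type marker lists on each array, with ALA, SFA and Control from left to right. Dividing cell genes stand at 6.19 and 7.42 on ALA and at 7.73 and 7.68 on SFA arrays, against 4.97 and 4.95 on Control arrays, and hepatocyte genes lie within 11.9 to 12.0 on all arrays.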

How the data were processed

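The deposited values are log2 signals, as their range shows, made by the authors with RMA and Partek 6.6 per the submitters' processing notes. Other settings are not given in the sources used here. They were used without further scaling. Probes were named through the platform annotation, with symbols checked against RefSeq (GRCm38.p6) by Entrez identifier: 21698 of 21789 probes with 1 symbol matched, and 0 symbols changed. The 1621 probes with several symbols were left out. Each gene was represented by its brightest probe, and genes with a mean of at least 5 over the 6 arrays were tested. A mean per diet was fitted to all 6 arrays with limma 3.58.1 (R 4.3.3, lmFit and eBayes), leaving 3 residual degrees of freedom. P-values are two-sided, adjusted by Benjamini-Hochberg over all 10977 tested genes, and called below 0.05. The SE has n = 2 arrays per group. The number of arrays limits the precision. The fit was tested on simulated data. From each list, up to 4 called genes with the largest change were named per comparison, and the 2 genes of highest correlation were named for each of the 9 genes. Others were named for their known role or after their values were seen. The genes and lists were chosen with earlier results of these data known. Alternatives were other scalings, filters, probe summaries and fits, and leaving out each array.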

Additional observations from a re-analysis of the deposited data

How the results depend on the processing

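Against Control, Gpc3, Igf2bp3, Mest and Grb10 kept their calls on both diets under all 15 alternatives, which are not all distinct. For each diet against Control, leaving out either array of the other diet gave the same result as the fit of only the 4 arrays compared. Those alternatives count as 1. Afp, Plagl1 and Dlk1 were not tested where a mean of at least 6 was required. Leaving out 1 array ended the Plagl1 calls and the Afp call on SFA and made Peg3 and Dlk1 pass, as given above. It left 4 to 5 of the 9 genes called on ALA, 5 to 6 on SFA and 4 to 5 by the F test. Over all tested genes it left 267 to 475 called on ALA, 245 to 1428 on SFA, 318 to 988 by the F test and 0 to 36 for ALA minus SFA, with 0 to 1 of the 9 genes. The fit of only the 4 arrays compared called 448 genes on ALA and 11 for ALA minus SFA. For ALA minus SFA, 168 genes were called as deposited, 68 with quantile normalization, 100 with 75th percentile centring, 76 with cyclic loess, 32 with no filter, 293 with a mean of at least 6 and 421 with trend and robust eBayes. The last also called 1 of the 9 genes, Afp (-1.08, adjusted p = 0.0434). As deposited 120 of the 168 were higher on ALA, against 34 of 68, 42 of 100 and 42 of 76 under those 3 scalings. On SFA 727 of 1512 genes were higher as deposited, against 967 of 1495, 1004 of 1519 and 957 of 1543. Replicate numbers did not pair the arrays (r of deviations from -0.0302 to 0.0226), and with the number as a replicate block 0 genes were called for ALA minus SFA, 719 on ALA and 1232 on SFA, with no change in the calls of the 9 genes. Signs turned for Dlk1 on ALA and for Gpc3, Grb10, Plagl1 and Cdkn1c in ALA minus SFA. Dlk1 on ALA was 0.0098 with cyclic loess and -0.022 to 0.018 when 1 array was left out. For ALA minus SFA, Plagl1 was -0.042 and Cdkn1c -0.046 with quantile normalization, and Cdkn1c was -0.020 with 75th percentile centring and -0.015 with cyclic loess. When 1 array was left out, ALA minus SFA ran from -1.37 to 0.11 for Gpc3, -0.13 to 0.40 for Grb10, -0.030 to 0.28 for Plagl1 and -0.086 to 0.26 for Cdkn1c. Where fewer arrays were used the fit had fewer samples; other causes were not tested. Signals at background limit Gpc3, Igf2bp3, Cyp3a16, Ccne2 and Top2a in Control, and Afp was near background there.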

Other observations

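Few markers of organs next to the liver were tested, and none of them was called higher on either diet. Cpa1, Prss2, Myh3, Vil1 and Cdx2 were under the signal minimum. So few genes cannot show whether such tissue was in the pools. Of 2 tested pancreas genes 0 were called on either diet, where 7.93% of all tested genes were called on ALA and 13.8% on SFA. Their medians were 0.15 on ALA and -0.26 on SFA. Of 3 tested muscle and gut genes 0 rose and 1 fell on each diet, where 2.82% of all tested genes fell on ALA and 7.15% on SFA. The 1 that fell was Fabp2, an intestinal fatty acid binding protein gene. Its fall was 1.08 on ALA (SE 0.23) and 0.87 on SFA (SE 0.23).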
